A study of Rattus norvegicus with 6 samples.

Results

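The epidermis sheds its outermost cells by desquamation, in which serine proteases cut the corneodesmosomes that hold dead keratinocytes together. Kallikrein-related peptidases are secreted by the upper living layers, activate one another in a cascade and are held back by the inhibitor that Spink5 encodes, and loss of that inhibitor causes the skin disease Netherton syndrome. Membrane-bound matriptase with its inhibitor Spint1, and the cystatin Cst6 with its cysteine protease targets, act beside them in building and shedding the cornified layer. Members were taken by gene symbol, 9 genes of the 18825 in the deposited table. They were the 6 proteases Klk5, Klk7, Klk8, Klk10, St14 and Casp14 and the 3 inhibitors Spink5, Cst6 and Spint1.

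Their RNA was measured in skin wounds on the back of male Sprague-Dawley rats made diabetic with a high-fat and high-sucrose diet and then streptozotocin, a toxin of pancreatic beta cells. All 6 libraries carried this diabetes and a wound through the full skin thickness, 3 from untreated wounds (control) and 3 from wounds treated with DST-MNs, microneedles that hold spheroids of dental pulp stem cells regulated by spermidine and TGF-β3. The labels give neither the animals' age, the day of collection nor the species of the stem cells, and they name no group with empty microneedles. They call the samples biological replicates without naming single animals, so p-values measure the spread between these samples. Library totals ran from 12545206 to 13818548 counts. In whole wound tissue, fewer cells of a type and less RNA per cell cannot be told apart.

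Promoter windows of RefSeq (build GRCr8, 250 bases before to 50 after the start of the gene) were at hand for 6 of the 9 genes. They were searched on both strands for the letters AACNGGTT, bound by grainyhead-like factors of the epidermis, TGANTCA of AP-1, TTGCNNAA of C/EBP, GGGTGTG of KLF factors and TATAAA of the TATA box. Only Spink5 and Spint1 held any of them, and those windows are shown for that reason. Capitals mark the matches. The window of Spink5 lies at chr18:36515097-36515396 and that of Spint1 at chr3:126685031-126685330, both on the plus strand.
Spink5: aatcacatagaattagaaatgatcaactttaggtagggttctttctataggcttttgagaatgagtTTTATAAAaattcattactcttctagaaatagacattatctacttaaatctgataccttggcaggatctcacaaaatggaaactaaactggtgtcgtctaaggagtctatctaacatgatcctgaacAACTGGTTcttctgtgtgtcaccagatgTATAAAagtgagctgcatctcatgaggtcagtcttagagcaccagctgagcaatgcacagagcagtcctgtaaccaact
Spint1: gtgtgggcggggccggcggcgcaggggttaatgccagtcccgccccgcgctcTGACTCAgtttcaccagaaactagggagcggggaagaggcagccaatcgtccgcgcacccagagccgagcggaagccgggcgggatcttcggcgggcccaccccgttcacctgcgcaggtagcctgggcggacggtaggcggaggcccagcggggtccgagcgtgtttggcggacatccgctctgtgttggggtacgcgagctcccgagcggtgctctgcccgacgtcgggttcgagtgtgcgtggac

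In the Spink5 window a TATAAA began at position -29 relative to the start, and a grainyhead match at -57. A second TATAAA lay at -182, where it overlaps a match on the minus strand at -184. Of all 33469 windows of this length, 14.2% held TATAAA and 2.10% held AACNGGTT. The Spint1 window held TGACTCA, an AP-1 match that reads on both strands as TGANTCA, at -198. That motif was in 7.33% of all windows, the C/EBP motif in 10.6% and the KLF motif in 7.08%. A match describes letters in the window and is not a measured binding site.

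All 9 genes were higher on average in the treated wounds, and every gene was highest in DST-MNs replicate 1. Spink5, Klk7 and Klk10 had few or no counts in controls and clear levels in treated wounds. Cst6 had 28, 0 and 19 counts in controls and 959, 385 and 284 in treated wounds. St14, which all controls expressed, was about 2.14-fold higher by mean CPM (counts scaled to library size with TMM factors). None passed the adjusted threshold in the main test. Only 6 of the 9 had enough counts for it (the quasi-likelihood test of edgeR with Benjamini-Hochberg adjustment over 14427 genes, threshold 0.05), and of those 6 none was called, against 0.658% of all genes called higher and 0.118% called lower. All 6 had an unadjusted p below 0.05, where 9.80% of all genes were higher and 6.88% lower. DESeq2 called 5 of the 6 higher, against 4.34% of all genes higher and 2.72% lower, and limma-voom called 0. Klk10, Klk7, Spink5, Cst6 and Spint1 made up the DESeq2 calls, and St14 had an adjusted p of 0.0566 there. Several members passed the count filter only through the treated libraries, so these counts over the tested members are a description.

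Levels below are TPM, which scale for gene length, so that genes can be compared. On this scale all 9 genes had every treated library above every control, Klk5 only narrowly. The share of all genes without overlap was not taken on the TPM scale, so this count is a description. All genes together lay somewhat higher there, with a median change of 0.12 on log2(TPM + 1), against 0.0044 in the main test. On the CPM scale 8 of 9 did not overlap, and 12.2% of the 18627 genes with a count lay higher without overlap and 8.50% lower.

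**Figure D1:**
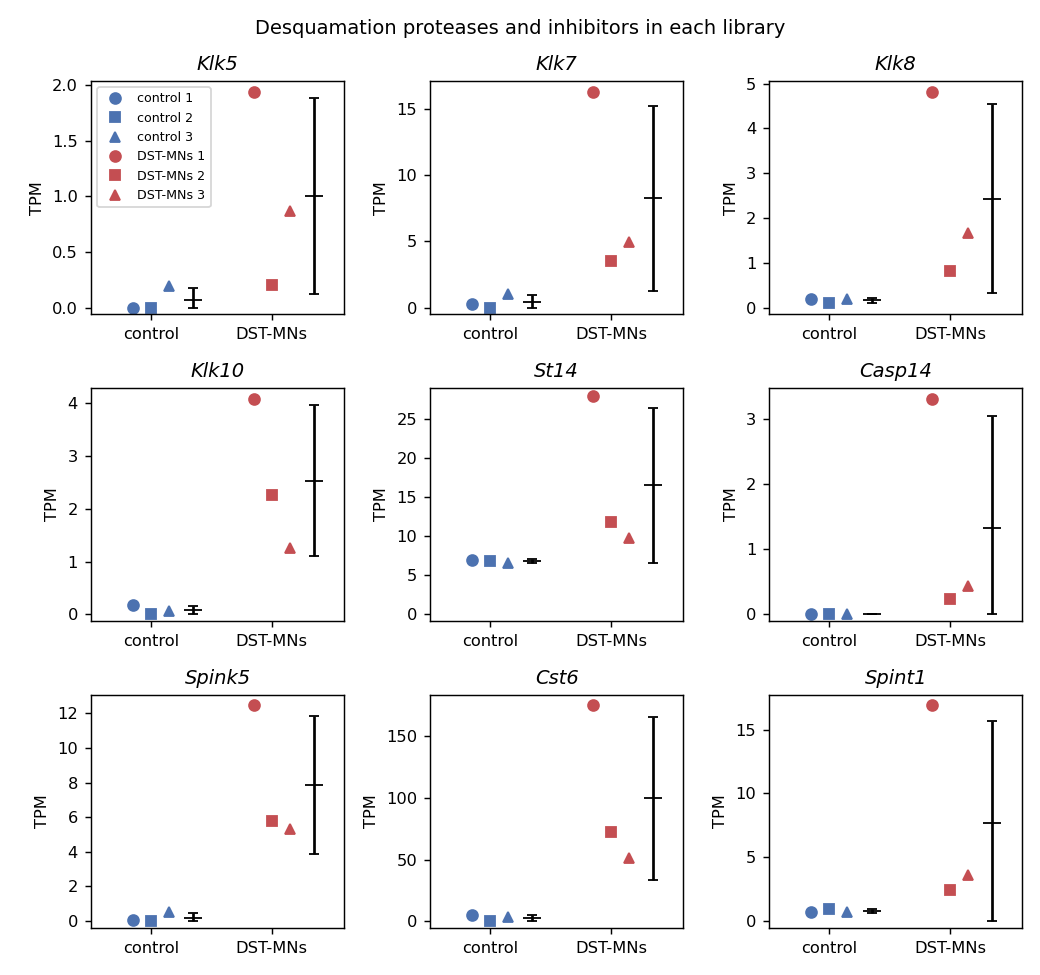
TPM of each protease and inhibitor in every library (points), with mean and SD (n = 3, black, lower bars stopped at 0) beside each group. The 3 treated libraries lie above the 3 controls in all 9 panels, for Klk5 by only 0.20 against 0.19, and DST-MNs replicate 1 is the highest point in each.

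Spink5 (gene ID 361319) encodes LEKTI, a secreted precursor cut into many Kazal-type inhibitor domains that block Klk5, Klk7 and related peptidases. It stood at 0.07, 0 and 0.52 TPM in controls 1, 2 and 3 and at 12.5, 5.79 and 5.32 TPM in DST-MNs 1, 2 and 3. Each treated library was more than 10 times the highest control. Counts were 3, 0 and 21 in controls and 510, 232 and 217 in treated wounds. Its log2 change was 5.19 (SE 0.99, with edgeR's adjusted p at 0.0885). Without control replicate 3, which leaves 3 control counts, edgeR's adjusted p was 0.0484. DESeq2 gave it an adjusted p of 0.00562.

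Cst6 (171096), cystatin M/E, inhibits cathepsin L and legumain and in this way restrains cross-linking of the cornified layer. Its levels were 4.71, 0 and 3.44 TPM in controls and 175, 72.5 and 51.2 TPM in DST-MNs 1, 2 and 3. It was the most abundant of the 9 in each treated library. Control replicate 2 had no count for it, while the other controls had 28 and 19. The log2 change was 4.99 (SE 0.93, with edgeR's adjusted p at 0.0823; DESeq2 adjusted p = 0.00837).

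Spint1 (311331) encodes HAI-1, a Kunitz-type inhibitor in the membrane that blocks matriptase and prostasin. Controls were close together at 0.74, 0.95 and 0.70 TPM. Treated wounds were spread over 16.9, 2.44 and 3.64 TPM, with DST-MNs 1 far above the rest. The log2 change was 3.07 (SE 0.75, with edgeR's adjusted p at 0.142) and 1.83 without DST-MNs replicate 1. DESeq2 gave it an adjusted p of 0.000835.

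St14 (114093) encodes matriptase, the type II transmembrane serine protease that starts a zymogen cascade in the epidermis and is made by many epithelia. Its control levels of 7.0, 6.83 and 6.57 TPM were the most even of the set. They were also the highest of the 9 genes in every control. Treated wounds held 27.9, 11.8 and 9.78 TPM, so 2 of the 3 were less than 2 times the controls. The log2 change was 1.10 (SE 0.36, with edgeR's adjusted p at 0.212) and 0.54 without DST-MNs replicate 1.

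Klk7 (292852), the chymotrypsin-like peptidase of the stratum corneum that cleaves corneodesmosin, was listed at 0.26, 0 and 1.01 TPM in controls. In DST-MNs 1, 2 and 3 it was at 16.3, 3.50 and 4.96 TPM, which made it the leading kallikrein-related member in each treated library. Its log2 change was 4.10 (SE 1.06, with edgeR's adjusted p at 0.155; DESeq2 adjusted p = 0.00146). Of 15 control counts, 12 were in control replicate 3.

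Klk10 (292850), a further secreted kallikrein-related peptidase, had 1, 0 and 2 counts in controls and 50, 28 and 15 in treated wounds. Its TPM were 0.17, 0 and 0.07 against 4.09, 2.26 and 1.26. With so few control counts the change is given as a ratio of scaled counts, which came to 29.3 and had a 95% exact counting interval of 9.73 to 145. That interval covers counting error only. Its adjusted p was 0.0634 by edgeR's quasi-likelihood test, the lowest of the members there, and 0.000969 by DESeq2.

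Klk8, Klk5 and Casp14 did not pass the count filter, which asks for about 10 counts in 3 libraries. Klk8 (308565), neuropsin, a trypsin-like peptidase of skin and brain, had 2, 1 and 2 counts in controls and 49, 8 and 17 in treated wounds, or 0.18, 0.09 and 0.20 TPM against 4.82, 0.81 and 1.67 TPM. Its groups did not overlap.

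Klk5 (102546758), the trypsin-like peptidase that activates Klk7, had 0, 0 and 2 control counts and 20, 2 and 9 treated counts. Scaled counts had a treated to control ratio of 14.7, with an exact 95% counting interval from 3.73 to 126. This interval too covers counting error only and leaves out the spread between libraries. On the CPM scale DST-MNs replicate 2, at 0.147, lay below control replicate 3, at 0.155. Among the kallikrein-related members its level was the lowest in each treated library.

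Casp14 (299587), the caspase of cornifying keratinocytes that helps break down filaggrin, was listed at 0 in all 3 controls. Treated wounds had 15, 1 and 2 counts, 3.31, 0.23 and 0.43 TPM. Against 3 counts as the floor of all controls together, its summed treated counts were 5.68-fold higher after scaling. That figure leaves out counting error and the spread between libraries. Most treated counts of Casp14 were in DST-MNs replicate 1.

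By mean TPM in treated wounds the order was Cst6 (99.6 ± 66.3), St14 (16.5 ± 9.92), Klk7 (8.26 ± 7.02), Spink5 (7.86 ± 3.99), Spint1 (7.66 ± 8.02), Klk10 (2.54 ± 1.44), Klk8 (2.43 ± 2.11), Casp14 (1.32 ± 1.72) and Klk5 (1.00 ± 0.878; mean ± SD, n = 3). Cst6 stood above St14 in all 3 libraries. From St14 on, neighbours in this order differed by less than the SD of the higher one. In controls the order was St14 (6.80 ± 0.217), Cst6 (2.72 ± 2.44), Spint1 (0.797 ± 0.134), Klk7 (0.423 ± 0.524), Spink5 (0.197 ± 0.282), Klk8 (0.157 ± 0.0586), Klk10 (0.0800 ± 0.0854), Klk5 (0.0633 ± 0.110) and Casp14, listed at 0. Cst6 and St14 thus exchanged the first rank between the groups.

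The members did not follow a single profile among the treated wounds. In DST-MNs replicate 2, Klk10, Spink5, St14 and Cst6 reached 55.3%, 46.5%, 42.4% and 41.4% of their TPM in DST-MNs replicate 1. Klk7, Klk8, Spint1, Klk5 and Casp14 reached 21.4%, 16.8%, 14.4%, 10.3% and 6.95%. The keratins Krt5 and Krt14 of basal cells and Krt1 and Krt10 of suprabasal cells reached 5.21%, 6.20%, 2.16% and 2.52%. Every listed share of a member in DST-MNs replicate 2 was thus above those of these 4 keratins, with Casp14 nearest to them. The share of Casp14 rests on 1 count against 15, so its place above the keratins is uncertain. That of Klk5 rests on 2 counts against 20. St14 was already at 6.57 to 7.0 TPM in controls, a level that its share includes. The junction gene Cdh1 kept 16.3% and the summed pan-epithelial markers 19.0%, more than Spint1, Klk5 and Casp14 and less than Klk7, Klk10, Spink5, St14 and Cst6. In DST-MNs replicate 3 the members lay between 13.0% and 44.8% of DST-MNs replicate 1, and the 4 keratins between 17.8% and 38.0%.

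Across the 6 libraries, log2 CPM of the 6 tested members varied together, with Pearson's r from 0.75 (St14 and Spink5) to 0.98 (Klk7 and Spink5). St14 and Spint1, protease and inhibitor of 1 pair, had r = 0.97. These points share their libraries and the group difference, so r is a description over 6 libraries. Genes with the most similar pattern were the hairless corepressor Hr, Fgd6 and Eps8l2 for Spint1, and Moxd1, Tfap2b and Sostdc1 for Klk7, with r from 0.991 to 0.999. For Cst6 they included Aptx and Ppara, and for Spink5 Flad1, Pex11g and Gramd1c. Klk10 was most like Rab40c, Acsl5 and Scube2, and St14 most like Slc16a7, Rreb1 and Sipa1l1, with r of at least 0.989. Similar patterns did not mean similar sizes of change, since that of Flad1 was 0.25 on the log2 scale (SE 0.12).

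**Figure D2:**
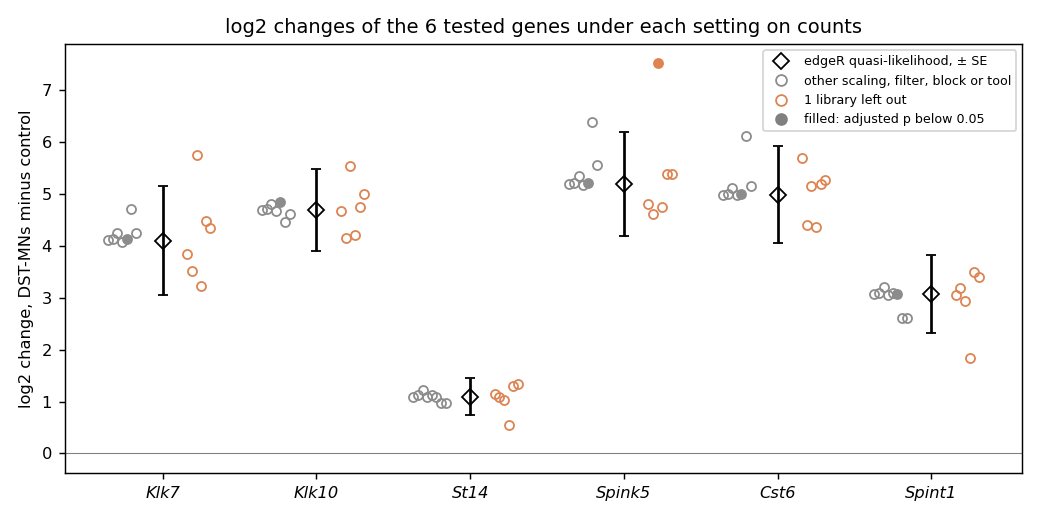
Fitted log2 change of the 6 tested genes under edgeR's quasi-likelihood test (diamond, ± SE), under other scalings, filters, block or tools on counts (grey) and with 1 library left out (orange). Filled points have an adjusted p below 0.05. All points lie above 0, St14 is nearest to it, and the filled points are those of DESeq2 for 5 genes and of Spink5 without control replicate 3.

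Leaving out DST-MNs replicate 1, the library with the highest levels, gave log2 changes of 4.75 for Spink5, 4.36 for Cst6 and 3.22 for Klk7. No member was called in that fit, and the lowest adjusted p was 0.152. With 1 library left out in turn, the log2 change ran from 3.22 to 5.76 for Klk7, where the upper end rests on 3 control counts, and from 4.36 to 5.70 for Cst6. For Spink5 it ran from 4.61 without control replicate 2 to 7.52 without control replicate 3, the latter a fitted value on 3 control counts. It ran from 1.83 to 3.50 for Spint1 and from 0.54 to 1.34 for St14. Scaling by total counts moved the median of all genes by 0.12 on the log2 scale, and St14 then had a log2 change of 1.23.

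Proteases and inhibitors were then set against each other within each library. Controls 1, 2 and 3 held 7.61, 6.92 and 8.04 TPM of the 6 proteases together, nearly all of it St14, and 5.52, 0.95 and 4.66 TPM of the 3 inhibitors. DST-MNs 1, 2 and 3 held 58.4, 18.8 and 19.0 TPM of proteases and 205, 80.7 and 60.2 TPM of inhibitors. Most of that inhibitor sum was Cst6, at 175, 72.5 and 51.2 TPM. Its targets named above, cathepsin L and legumain, are not among the 6 proteases, so the ratio is not one of inhibitors to their own targets. Protease TPM per inhibitor TPM was thus 1.38, 7.28 and 1.73 in controls and 0.285, 0.233 and 0.315 in treated wounds. The mean difference of the log2 ratio was -3.23, with no overlap (exact two-sided permutation test, p = 0.1, the smallest that 3 against 3 allows). This difference rested on St14: with it left out of the proteases, the ratios were 0.111, 0.0947 and 0.315 in controls and 0.149, 0.0867 and 0.153 in treated wounds, and the difference was -0.25 (exact permutation p = 0.8). With Cst6 left out of the inhibitors it was -1.85 (exact permutation p = 0.1). Both settings were chosen after the levels had been seen.

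Single pairs of inhibitor and target were also compared. Spint1 per St14 was 0.106, 0.139 and 0.107 in controls and 0.606, 0.207 and 0.372 in treated wounds, without overlap. Spink5 per summed Klk5, Klk7 and Klk8 was 0.159, 0 and 0.371 in controls and 0.540, 1.28 and 0.709 in treated wounds, also without overlap, from low control levels. The cysteine proteases Ctsl and Lgmn together exceeded Cst6 in all 6 libraries. Cst6 per their summed TPM was 0.0018, 0 and 0.00136 in controls and 0.103, 0.0460 and 0.0315 in treated wounds. These pair ratios were chosen after the values were seen and carry no test.

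**Figure D3:**
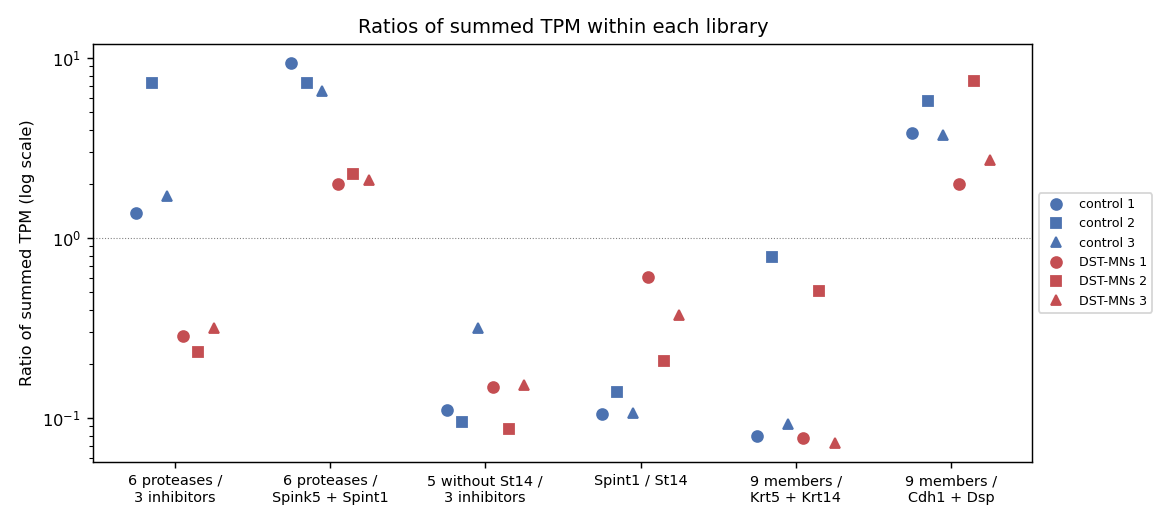
Ratios of summed TPM within each library on a log axis (points, colour for group, shape for replicate). Protease to inhibitor ratios lie apart between the groups with St14 included and overlap without it. Ratios of the sum of the 9 members, mainly St14 or Cst6, to keratins (Krt5, Krt14) or to junction genes (Cdh1, Dsp) overlap.

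Relative to basal keratin, the summed TPM of the 9 members did not separate the groups. The 9 members together per summed TPM of Krt5 and Krt14 were 0.0793, 0.790 and 0.0932 in controls and 0.0776, 0.509 and 0.0731 in treated wounds. Both values from replicates numbered 2 were high, and the others lay close together whatever the group. St14 was the largest part of the member sum in controls, at 6.83 of 7.87 TPM in control replicate 2. Cst6 was the largest part in treated wounds, at 72.5 of 99.5 TPM in DST-MNs replicate 2. The sum therefore does not describe each of the 9 genes, and the ratio without St14 was not tested. The mean difference of the log2 ratio was -0.34 (exact two-sided permutation test, p = 0.5), and it was -0.34 (p = 0.6) with Cdh1 and Dsp, genes of epithelial junctions, as the denominator.

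Markers of keratinocytes and of other skin epithelia moved with the members. All 18 listed genes of differentiated keratinocytes that were in the table summed to 16.8 to 91.1 TPM in controls and 133 to 1189 TPM in treated wounds, and 12 of the 18 were higher without overlap in CPM. The 12 basal genes, Krt5 and Krt14 among them, summed to 101 to 286 TPM and 454 to 4031 TPM, with 8 of 12 higher without overlap. Of 14 pan-epithelial genes such as Cdh1 and Epcam, which summed to 36.4 to 62.2 TPM and 187 to 983 TPM, 13 were higher without overlap. Over all genes with a count, 12.2% were higher without overlap. Involucrin and Alox12b of the differentiated list had no count in any control. Their part in the members' differences was not tested.

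Hair follicle markers, Krt71 and Krt73 among 18, summed to 1433 TPM in DST-MNs replicate 1 but to 9.21 and 18.0 TPM in DST-MNs 2 and 3 and 2.21 to 16.5 TPM in controls. Sebaceous markers, with Awat1 and Awat2 among 15, summed to 426 to 511 TPM in controls and, evenly, to 1039 to 1184 TPM in treated wounds. Wound-edge genes, Krt6a and Krt16 among 7, overlapped between groups at 1263 to 3341 and 1461 to 3819 TPM, most of which was S100a8 and S100a9. Skeletal muscle markers such as Acta1 and Ckm summed to 135 TPM in control replicate 2, 581 TPM in control replicate 3 and at least 6026 TPM in the other 4 libraries. Fibroblast (Col1a1, Col1a2), macrophage (Cd68, Csf1r), neutrophil and endothelial (Pecam1, Cdh5) sums overlapped between the groups. Gene by gene, all 8 fibroblast and all 6 endothelial genes had a negative log2 change. Of these, 2 and 3 were lower without overlap in CPM, against 8.50% of all genes with a count. Of 7 macrophage genes 5 had a positive log2 change and 2 a negative one, and edgeR's quasi-likelihood test called 1 lower, against 0.118% of all genes. The part of these marker lists in the members' differences was not tested either.

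**Figure D4:**
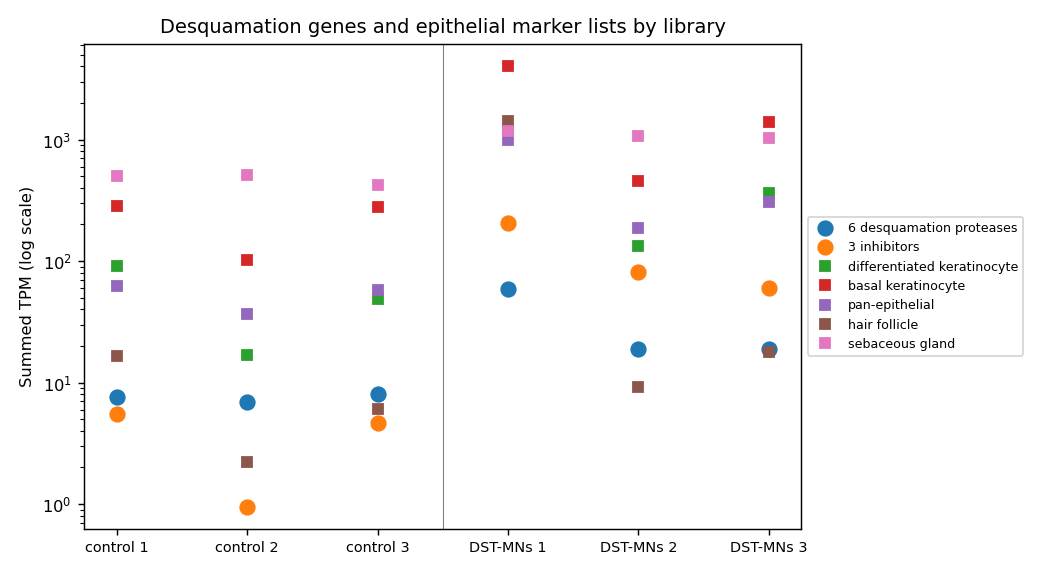
Summed TPM of the 6 proteases, the 3 inhibitors and 5 epithelial marker lists in each library, on a log axis. The inhibitors exceed the proteases in sum in the 3 treated libraries, hair follicle genes are high in DST-MNs replicate 1 alone, and sebaceous genes are even across the treated libraries.

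The kallikrein-related genes lie side by side on 1 chromosome, in the order Klk14, Klk13, Klk12, Klk11, Klk10, Klk9, Klk8, Klk7, Klk6, Klk5 and Klk4 in the RefSeq table (GRCr8). Klk4 was not analysed here. Of the neighbours, Klk6 (29245) was nearest to Klk7 in level, at 0.23, 0 and 1.25 TPM in controls and 11.1, 7.26 and 7.57 TPM in DST-MNs 1, 2 and 3. It exceeded Klk7 in DST-MNs 2 and 3 and was more even among treated wounds than any member (log2 change 4.01, SE 0.86, with edgeR's adjusted p at 0.111). Klk11 had no control count and 27, 5 and 13 treated counts, 14.2-fold higher over the floor of 3 counts for the group. Klk13 had no control count and 6, 1 and 3 treated counts, 3.15-fold over that floor. Both folds leave out counting error and the spread between libraries. Klk12 had 1 count in all. Klk9 and Klk14, with 16 and 19 counts in all, overlapped between the groups, so neighbouring genes did not all differ. The glandular kallikrein Klk1 (24523) was at 47.7, 0 and 5.16 TPM in controls against 48.2, 93.6 and 104 TPM, so control 1 nearly reached DST-MNs 1. Klk1 has close copies in the rat, so its level is uncertain. Of 7 other kallikreins that the table holds, 2 could be tested, and edgeR's quasi-likelihood test called 0. At its unadjusted p below 0.05, 1 was higher, against 9.80% of all genes. DESeq2 called 1 higher, against 4.34% of all genes. Both counts are Klk6, which had 2, 0 and 10 control counts and passed the count filter only through the treated libraries. They are therefore a description.

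**Figure D5:**
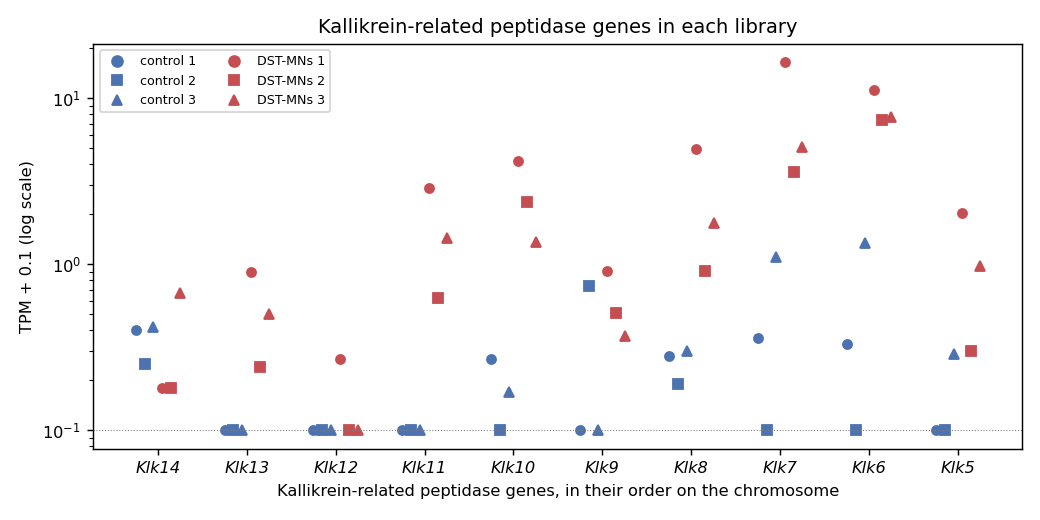
TPM + 0.1 of the kallikrein-related genes in each library on a log axis, in their order along the chromosome. Points on the dotted line have 0 TPM. Klk13 and Klk11 are at 0 in all controls, Klk7 and Klk6 are the highest treated genes, and Klk14 and Klk9 overlap between groups.

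Other proteases of the epidermis went in both directions. Of 25 that the table holds, 17 were tested, with a median log2 change of -0.06 against 0.0044 over all genes. The quasi-likelihood test of edgeR called 1 higher and 0 lower, against 0.658% and 0.118% of all genes. Asprv1 (500243), the aspartic protease SASPase that processes filaggrin, rose from 0.80, 0.08 and 0.58 TPM to 35.5, 27.2 and 11.2 TPM. Its log2 change was 5.47 (SE 0.70, with edgeR's adjusted p at 0.0281). The call held without control replicate 1 (edgeR's adjusted p 0.0286) and was lost without any 1 of the other 5 libraries, at edgeR's adjusted p from 0.0547 to 0.119. It was also lost with limma-voom (adjusted p = 0.0954). Prss8 (192107), prostasin, which acts with matriptase, was at 0.10, 0 and 0.21 TPM against 4.84, 1.49 and 2.86 TPM (log2 change 4.70, SE 0.82, edgeR's adjusted p 0.0723). Tmprss11e had no control count and was 24.6-fold higher over the floor, with counting error and the spread between libraries left out. Its adjusted p was 0.0618 by edgeR's quasi-likelihood test, and it was called by limma-voom (0.0151), by DESeq2 (9.25e-05) and by edgeR without control replicate 1 (0.0472). Without any 1 of the other 5 libraries its edgeR adjusted p was 0.107 to 0.174. Tmprss11e passed the count filter only through the treated libraries. Asprv1 and Prss8 dropped out when at least 10 counts were required in every library. The calls and adjusted p-values of these genes are therefore a description. In the other direction Ctsl (25697), cathepsin L, a target of Cst6, stood at 2016, 1794 and 1888 TPM against 1173, 1088 and 1313 TPM, without overlap (log2 change -0.82, SE 0.17, with edgeR's adjusted p at 0.110).

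Among 23 other inhibitors that the table holds, 11 were tested and 0 were called by edgeR's quasi-likelihood test. At its unadjusted p below 0.05, 3 were higher and 1 lower, against 9.80% and 6.88% of all genes. By DESeq2 2 were called higher and 1 lower, against 4.34% and 2.72% of all genes. The tested inhibitors had a median log2 change of 0.32. Spint2, HAI-2, the relative of Spint1, was at 28.7 to 39.6 TPM in controls and 70.2 to 107 TPM in treated wounds (log2 change 1.14, SE 0.24, edgeR's adjusted p 0.108). Serpinb5, maspin, of keratinocytes, had a log2 change of 4.23 (SE 0.97, edgeR's adjusted p 0.128). Slpi, the secreted inhibitor of neutrophil elastase, which also blocks Klk7, went the other way, at 167 to 278 TPM in controls and 33.8 to 92.5 TPM in treated wounds (log2 change -1.93, SE 0.35, edgeR's adjusted p 0.0735). Wfdc2, of the same whey acidic protein family, had one of -0.78 (SE 0.37). Stfa2, a stefin with close copies, had one of 3.69 (SE 1.34).

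Substrates of the shedding proteases were higher in part. Of 14 listed substrates and targets that the table holds, 11 were tested, with a median log2 change of 2.77. The quasi-likelihood test of edgeR called 0. At its unadjusted p below 0.05, 7 were higher, against 9.80% of all genes. By DESeq2, 6 were called higher, against 4.34% of all genes. Filaggrin, with 1 control count, passed the count filter only through the treated libraries, so these counts are a description. Cdsn, corneodesmosin, the direct substrate of Klk5 and Klk7, was at 5.22 to 8.22 TPM in controls and 9.77 to 20.7 TPM in treated wounds (log2 change 1.05, SE 0.26, edgeR's adjusted p 0.148). Dsg1, the desmosomal cadherin cut in shedding, had a log2 change of 4.24 (SE 0.99), Dsg3 one of 2.77 (SE 0.59) and Dsc3 one of 5.44 (SE 1.42). Filaggrin (Flg), the substrate shared by Casp14 and Asprv1, had 1 control count. Scaled counts gave a treated to control ratio of 403, with an exact 95% counting interval from 71.9 to 15953. That interval covers counting error only and leaves out the spread between libraries. Filaggrin was at 1.62 TPM in DST-MNs replicate 1 and at 0.05 and 0.23 TPM in the other treated libraries.

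Transcription factors of epidermal differentiation were higher in part. Of 17 listed regulators that the table holds, 16 were tested, with a median log2 change of 2.05. No regulator was called by edgeR's quasi-likelihood test. At its unadjusted p below 0.05, 9 were higher and 2 lower, against 9.80% and 6.88% of all genes. By DESeq2 7 were called higher and 1 lower, against 4.34% and 2.72% of all genes. Grhl1 and Grhl2, grainyhead-like factors, had log2 changes of 3.81 (SE 0.89, edgeR's adjusted p 0.131) and 4.09 (SE 1.06, edgeR's adjusted p 0.155). Both dropped out when at least 10 counts were required in every library, so the counts over the tested regulators are a description. Cebpa, a C/EBP factor, had one of 0.81 (SE 0.22). Nfkbiz, a nuclear inhibitor of NF-κB family that inflammation induces, had one of -1.57 (SE 0.30, edgeR's adjusted p 0.0900).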

How the data were processed

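Per the labels' protocols, RNA was isolated with TRIzol and messenger RNA libraries were read in pairs on a DNBSEQ-T7. The authors deposited estimated counts per gene, FPKM, TPM and a normalised count signal (counts divided by 1 factor per library), per the file headers. The submitters' processing notes name the build mRatBN7.2, and no aligner or counter is given in these sources. How reads of similar genes were divided is not given either.

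Read counts were rounded, filtered with filterByExpr (minimum count 10) and scaled with TMM. They were tested by edgeR 4.0.16 (glmQLFit and glmQLFTest in R 4.3.3) over 14427 genes with Benjamini-Hochberg adjustment. SE is the log2 change divided by the square root of F. log2 CPM used a prior count of 2. Members were read from this fit. Ratios used TPM, with FPKM as an alternative. The normalised read counts were not tested. Alternatives were other scalings and filters, DESeq2 1.42.0, limma-voom and limma trend on log2(TPM + 1) or log2(TPM + 0.1) (limma 3.58.1), the replicate number as a block, and each library left out. On simulated data for this comparison (14267 genes), 25 of 100 genes raised 2-fold were found, 89 of 100 raised 4-fold were found, and 4 unchanged genes were called. Each gene was drawn independently there. Changed genes were picked at random, with a spread set by level over all genes. The shares found therefore do not carry over to members with few control counts or uneven treated libraries.

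Named genes were all members, up to 5 tested genes with the smallest p from each of 5 pathway lists, the first 2 of each of 11 marker lists, and the 3 genes with the highest r to each tested member (mean log2 CPM of at least 1). Some genes that this rule names are not reported here. Klk9, Klk11 to Klk14, Lgmn, Alox12b, involucrin and Dsp were named after their values were seen. Members and lists were chosen with earlier results of these data known. Of the gene identifiers, 18588 were in the RefSeq table (GRCr8).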

Additional observations from a re-analysis of the deposited data

How the results depend on the processing

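Every alternative that tested a member kept its direction, higher after treatment: of 107 such values over 9 genes, 97 stayed on the same side of the threshold, 10 passed it and 0 reversed. The count of members called, 0 of 6 in edgeR's quasi-likelihood test, was 5 with DESeq2, 2 with limma trend on log2(TPM + 1) (Spink5 and Cst6), 1 with log2(TPM + 0.1) and 1 with no filter on TPM (Spink5 in both), and 0 to 1 with 1 library left out. With at least 10 counts required in every library, St14 and Spint1 were the only members left. Over all genes 112 were called, 38 with at least 10 counts in every library, 1018 with DESeq2 and 14 to 402 with 1 library left out. With the replicate number as a block 123 genes and 0 members were called, and Asprv1 had an adjusted p of 0.05003, just above the threshold of 0.05. Same-numbered samples had correlations of -0.025, 0.10 and 0.11 between their deviations from the group means. Control 1 correlated best with DST-MNs 2 (0.053), while controls 2 and 3 correlated best with the treated samples of their own number. The labels do not say that the numbers pair samples, and they were not taken as pairs. The log2 difference of members relative to basal keratins ran from -1.26 to 0.73 with 1 library left out, so its direction was not stable, and that of proteases relative to inhibitors from -3.68 to -2.48. Of 1016 values for 62 other named genes, 949 stayed on the same side of the threshold, 25 lost a call and 41 gained one. The remaining 1 reversed, Csf1r at -0.032 without DST-MNs replicate 1 (to 0.38 with 1 other library left out). Low counts limit Klk5, Klk8 and Casp14 most.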

Other observations

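Some inhibitors that sit beside the members in keratinocytes were distributed differently among the treated wounds. Csta, a stefin that inhibits cathepsins, was at 129, 0.90 and 39.8 TPM in DST-MNs 1, 2 and 3, and Stfa2 at 1042, 12.4 and 654 TPM, so that DST-MNs replicate 2 lay within the range of the controls for both (0.77 to 6.08 TPM and 11.4 to 55.9 TPM). Serpinb3a, a clade B serpin, was at 13.2, 0 and 3.57 TPM. Krt16, a keratin of activated keratinocytes, showed the same gap, at 64.3, 0 and 35.2 TPM. In that library Cst6 was at 72.5 TPM and Spink5 at 5.79 TPM, above all controls. Stefins and clade B serpins have close copies in the rat, so their levels are uncertain, and apart from Stfa2 and Krt16 these genes were chosen after their values were seen.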
